A study of Caenorhabditis elegans with 4 samples.

Results

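The major sperm protein genes of Caenorhabditis elegans, here the 31 protein-coding genes whose symbol starts with msp-, were examined for binding of the chromatin protein MRG-1 among 19971 protein-coding genes on the nuclear chromosomes. A gene counted as marked when at least 1 bp of its annotated span lay under an MRG-1 peak. The genes were taken by symbol and not by a measured value, although earlier results of these data were known when the set was chosen. The data are chromatin immunoprecipitation sequencing (ChIP-seq) of hermaphrodites of the strain fem-2(b245), kept at 20 °C, with 2 MRG-1 ChIP samples set against 2 input samples of genomic DNA without immunoprecipitation. All samples carried the fem-2(b245) allele on chromosome III, so no wild-type animals enter. The antibody, MRG-1 SDQ4068, is an affinity-purified rabbit polyclonal, and the ChIP results are 3 deposited peak lists, for replicate 1, for replicate 2 and for the series as a whole (series-wide). The stage is labelled young adult with a germline, whereas the growth protocol describes gravid adults, and whole animals were used, so germline and somatic chromatin are mixed. The labels do not say whether the 2 ChIP samples came from separate cultures.

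MRG-1 is a chromodomain protein of the MRG15 family, needed in the C. elegans germline. Proteins of this family bind histone H3 methylated at lysine 36, a mark laid down along transcribed genes. Major sperm protein (MSP) is the small cytoskeletal protein of nematode sperm: its filaments drive the crawling of the amoeboid sperm cell, and MSP released from sperm is also the signal that starts oocyte maturation and sheath contraction. It is made from a family of short, nearly identical genes grouped on a few stretches of chromosomes II and IV and expressed during spermatogenesis. fem-2 belongs to the sex-determination pathway and is required for hermaphrodites to make sperm and for males to form. Whether the animals held sperm was not measured here.

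The replicate 1 list had 2769 peaks over 16.7 Mb, the replicate 2 list 3895 peaks over 13.1 Mb, while the series-wide list held 12147 peaks over 14.8 Mb. No read counts come with the peaks, so sequencing depth is unknown, and the inputs gave no values of their own to set beside the ChIP lists. Peak positions are on WormBase WS220 and gene spans are from the WBcel235 table, in which positions were taken to lie within about 200 bp of WS220. Distances below carry that uncertainty, and no gene coordinates are given for that reason.

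No major sperm protein gene lay under an MRG-1 peak. The count was 0 of 31 in each replicate list and 0 of 31 in the series-wide list. Among all protein-coding genes, 30.2% were marked in replicate 1, 28.1% in replicate 2 and 32.7% series-wide. Of the bases in msp gene spans, 0% were covered in each list. A count of 0 of 31 allows a share of up to about 9.68%, an approximate limit taken as 3 of 31. It covers counting error only and treats the genes as independent, although neighbours in a cluster share their surroundings. With clusters as the units the limit would be wider, so shares above 9.68% in other gene sets are not excluded by it. Because 2 peak lists and no input values allow no test over samples, the shares are descriptions of these lists.

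The msp genes are short, and short genes meet a peak less often. Of the 31, 28 spanned 384 bp, msp-32 spanned 360 bp, and msp-74 and msp-58 spanned 234 bp. All 31 lengths are multiples of 3, so these are coding lengths without untranslated regions. Of the 163 other protein-coding genes of 234 to 384 bp on II and IV, 16.6% were marked in replicate 1, 12.3% in replicate 2 and 17.8% series-wide. Over all autosomes, 370 other genes of that length were marked to 15.4%, 11.1% and 15.9% in the same order of lists. A rule that does not depend on the length of the span is to ask only about the middle base of a gene. For msp genes its result, 0 of 31 in each list, was fixed by the count over whole spans. By the middle base 22.5%, 19.9% and 21.8% of all protein-coding genes were marked in replicate 1, replicate 2 and the series-wide list. Of the 370 autosomal genes of the same length, 14.1%, 10.5% and 14.1% were. With spans widened by 1 kb on each side, 3 of 31 msp genes (9.68%) met a peak in replicate 1, 2 (6.45%) in replicate 2 and 2 (6.45%) series-wide, against 33.9%, 32.3% and 38% of all protein-coding genes. Among the 370 autosomal genes of the same length, 18.0% ± 2.1 did (mean and SD over the replicates, n = 2). The gene sets also differ in chromosome: all 31 msp genes are on II and IV, where 32.9%, 30.9% and 34.8% of all protein-coding genes were marked.

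**Figure D1:**
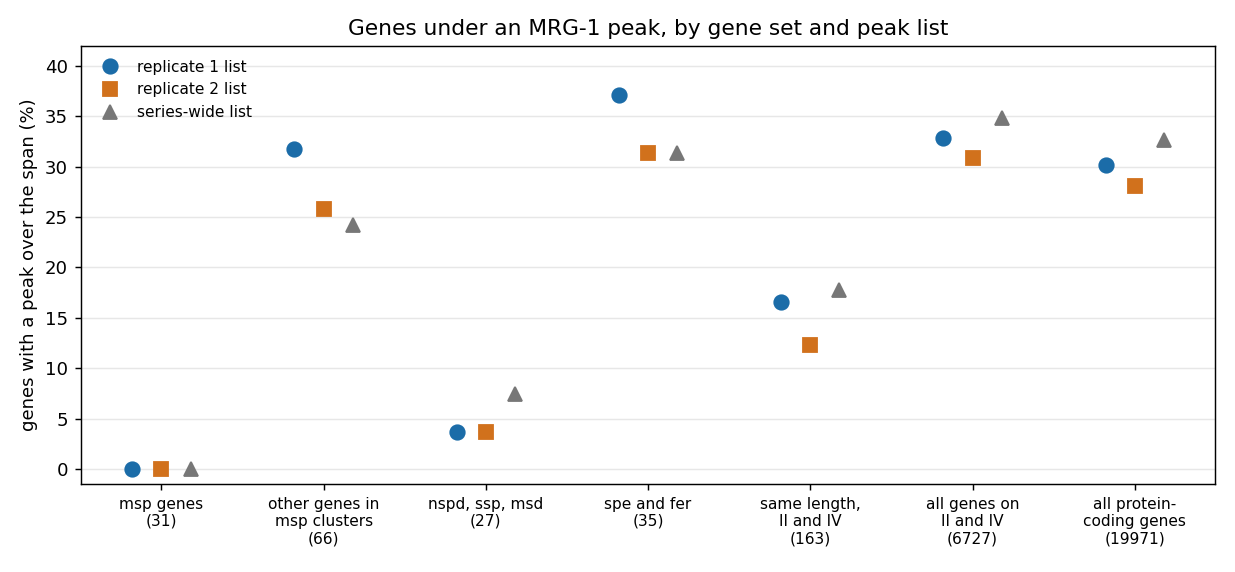
Percent of genes with an MRG-1 peak over at least 1 bp of their span (vertical axis), by gene set (horizontal axis, number of genes in brackets), with 1 point for each peak list. The msp genes sit at 0% in all 3 lists, while other genes in the same clusters sit between 24.2% and 31.8% and genes of the same length on II and IV between 12.3% and 17.8%.

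The genes form tandem groups. With successive msp genes joined when their starts lay within 50 kb, the 13 genes on II fell into 4 clusters, and the 18 on IV into 5 clusters and 2 single genes, msp-76 and msp-77. None of the 9 clusters and neither single gene had a marked msp gene in any of the 3 lists. On II the clusters ran from msp-3 to msp-40 (2 genes, 39.9 kb), msp-33 to msp-152 (4 genes, 41.1 kb), msp-74 to msp-50 (4 genes, 85.1 kb) and msp-63 to msp-64 (3 genes, 13.3 kb). On IV they ran from msp-55 to msp-53 (3 genes, 9.43 kb), msp-19 to msp-65 (6 genes, 56.3 kb), msp-79 to msp-78 (2 genes, 3.66 kb), msp-81 to msp-56 (3 genes, 5.89 kb) and msp-36 to msp-38 (2 genes, 48.3 kb). The 4 msp pseudogenes in the table, msp-42, msp-71, msp-52 and msp-37, were not marked in any list either.

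MRG-1 peaks did lie within these clusters, over other genes. The stretches from the first to the last msp gene of a cluster overlapped 66 other protein-coding genes. Of these, 21 (31.8%) were marked in replicate 1, 17 (25.8%) in replicate 2 and 16 (24.2%) series-wide. Set against the 30.2%, 28.1% and 32.7% of all protein-coding genes, the shares were slightly higher in replicate 1 and lower in the other lists. On II and IV, where all the clusters lie, 32.9%, 30.9% and 34.8% of protein-coding genes were marked. Against these the shares were lower in all 3 lists. The neighbours are longer than the msp genes, with a median span of 1765.5 bp. By the middle base, a mean of 12 of the 66 were marked over both replicates. Of all protein-coding genes, 22.5% in replicate 1 and 19.9% in replicate 2 were marked by that rule. Of the 66, 15 were marked in all 3 lists and 45 in none. Among the 110 genes next to the clusters, 5 on each side, 26 (23.6%) were marked in replicate 1, 28 (25.5%) in replicate 2 and 27 (24.5%) series-wide.

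The peaks inside clusters were unevenly spread. From msp-33 to msp-152, all 6 other genes were marked in replicate 1, 5 in replicate 2 and 4 series-wide, and 36.7% of the stretch was covered in replicate 1, 27.6% in replicate 2 and 28.0% series-wide. Of the 6, gst-9 contains msp-33 and was marked in replicate 1 by a peak outside the stretch, which ended before msp-33. The genes marked by peaks within the stretch include sgt-1, which encodes a tetratricopeptide co-chaperone, and snpc-1.4, of the family of snRNA-activating complex subunits. From msp-3 to msp-40, 5 of 7 other genes were marked in replicate 1, 4 in replicate 2 and 4 series-wide, and peaks covered 19.4%, 14.1% and 15.9% of the stretch. From msp-36 to msp-38, 6 of 15 other genes were marked in replicate 1, 5 in replicate 2 and 5 series-wide. Among them were dis-3, a ribonuclease of the RNA exosome, ctf-18, a subunit of an alternative clamp loader of DNA replication, and glt-3, a glutamate transporter. In the same stretch spch-1, a gene for a sperm chromatin protein, and 3 glutathione S-transferase genes, gst-2, gst-3 and gst-4, were marked in no list.

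The remaining clusters held few peaks or none. From msp-74 to msp-50, 1 of 20 other genes was marked in replicate 1, 0 in replicate 2 and 1 series-wide. The gene was crh-2, of the CREB family of transcription factors, and the 6 srb- chemoreceptor genes of that cluster were marked in no list. From msp-19 to msp-65, the largest cluster, 3 of 12 other genes were marked in each replicate and 2 in the series-wide list, all by 1 peak between msp-19 and msp-51. In replicate 1 that peak ran from base 5274050 to base 5276205 of IV, and in replicate 2 from base 5274108 to base 5275742. The clusters msp-63 to msp-64, msp-55 to msp-53, msp-79 to msp-78 and msp-81 to msp-56 had no peak between their first and last gene in any list.

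Among the msp genes, 3 lie wholly within the annotated span of another protein-coding gene. Of these, msp-31 lies in aagr-2, an alpha-glucosidase family gene of 10755 bp. Peaks covered 1.78% of aagr-2 in replicate 1, 4.48% in replicate 2 and 0% series-wide, at the end nearer to msp-31, which itself stood 1.49 kb from a peak in replicate 1 and 1.20 kb in replicate 2. Another, msp-33, lies in gst-9, a glutathione S-transferase gene of 2029 bp, of which 26.1% was covered in replicate 1 and 0% in both other lists. The third, msp-45, lies in the chemoreceptor gene srb-13, which was marked in no list. A host gene could thus be marked in a list while the msp gene inside it was not, but neither aagr-2 nor gst-9 was marked in all 3 lists. The overlap with aagr-2 in replicate 1 is short enough to fall within the uncertainty between builds.

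**Figure D2:**
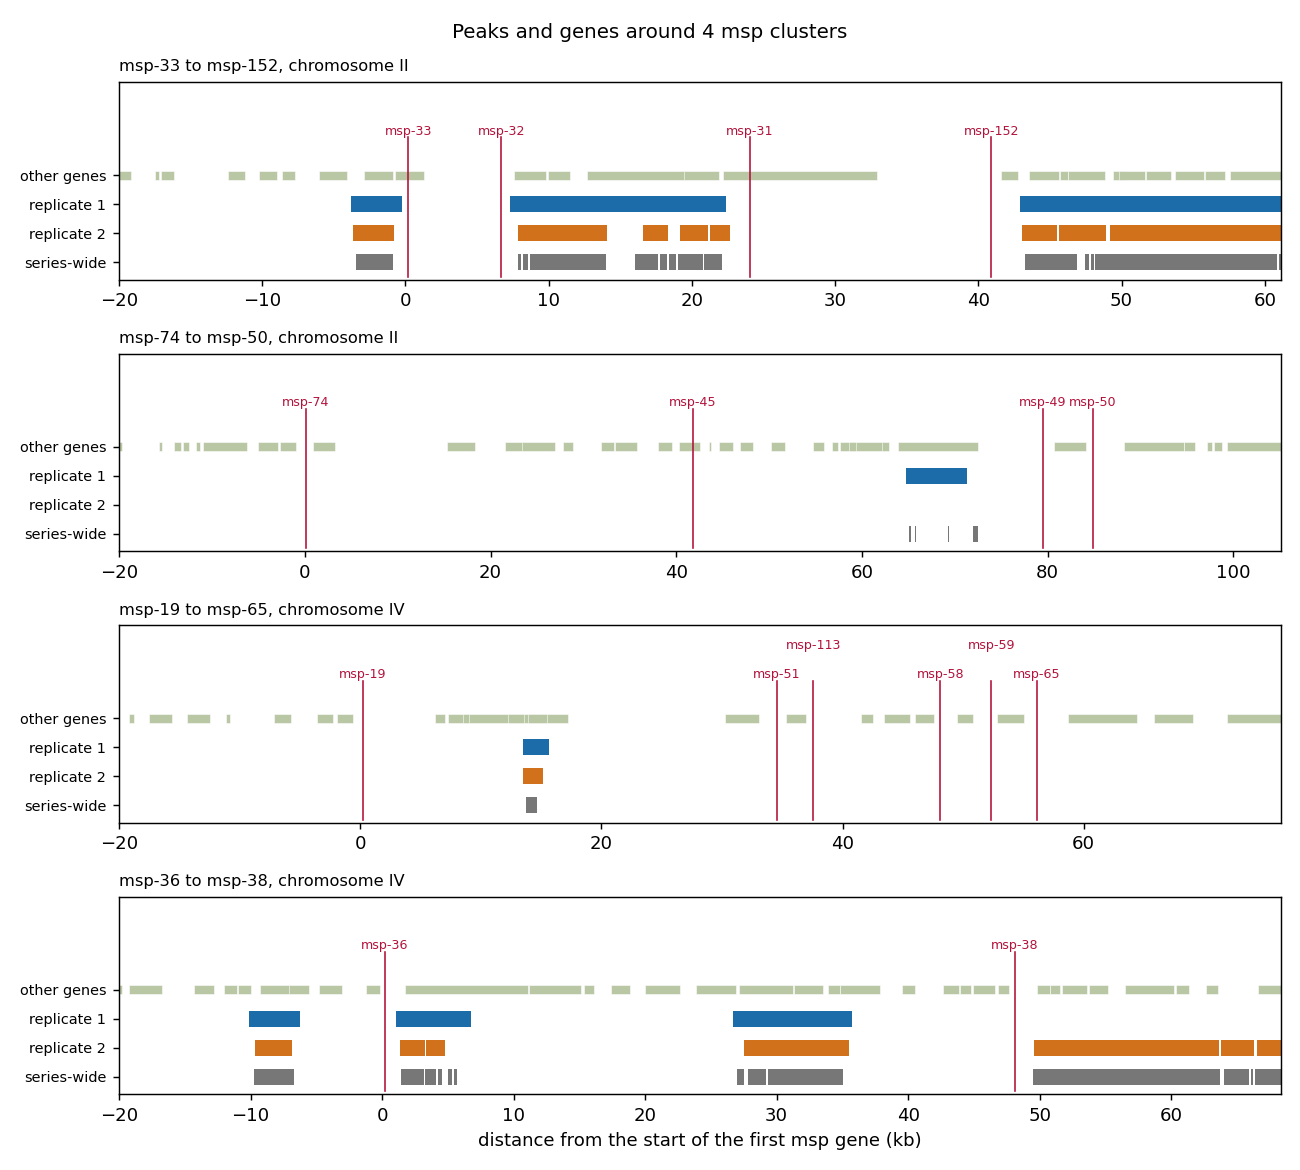
Peaks of each list (bars) and other protein-coding genes (green) around 4 msp clusters, with msp genes as red lines, against distance in kb from the start of the first msp gene. The red lines meet no bar in any of the 3 lists; from msp-33 to msp-152 they stand in the gaps between wide peaks, while from msp-74 to msp-50 replicate 2 has no peak at all.

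Peak coverage was lower beside the msp genes than farther away. In the first 1 kb on each side of an msp gene, 1.55% ± 1.63 of the bases lay under peaks (mean and SD over the replicates, n = 2), against 13.0% ± 1.98 around other genes of the same length on II and IV (n = 2) and 23.9% ± 3.04 around the 6696 other genes there (n = 2). From 1 to 2 kb the msp genes stood at 6.71% ± 1.05, against 13.6% ± 0.707 for genes of the same length and 22.0% ± 2.12 for the other genes (SD, n = 2 each). From 2 to 5 kb the values were 10.7% ± 0.212 for msp genes, 12.8% ± 0.849 for genes of the same length and 20.1% ± 2.40 for the other genes (SD, n = 2 each).

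Peaks are wide, and the comparison sets above include marked genes while no msp gene was marked, so coverage beside the spans is not independent of the count of 0. With only genes that had no peak over their span in the same list, a comparison added after seeing the data, the first 1 kb was covered to 1.55% ± 1.63 for msp genes, 1.10% ± 0.327 for genes of the same length on II and IV and 1.86% ± 0.289 for the other genes there (SD, n = 2 each). From 1 to 2 kb the msp genes, at 6.71%, were above the unmarked genes of the same length at 3.91% ± 1.05 and the other unmarked genes at 4.65% ± 0.488 (SD, n = 2 each). From 2 to 5 kb coverage was 10.7% for msp genes, against 6.16% ± 0.203 and 8.20% ± 0.138 for these 2 sets. From 5 to 10 kb it was 17.6%, against 7.72% ± 0.146 and 12.4% ± 1.14. From 20 to 50 kb it was 18.9%, against 15.1% ± 2.57 and 15.3% ± 2.66 (SD, n = 2 each). Set against unmarked genes, msp genes thus had higher mean coverage at these distances beyond 1 kb. Within 1 kb the sets differed by less than the spread between replicates. These differences were not tested.

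With marked genes included again, the msp genes had the lowest coverage of the sets within 5 kb but not farther out. From 5 to 10 kb coverage was 17.6% ± 2.90 around msp genes, 11.1% ± 0.566 around genes of the same length and 18.0% ± 2.33 around the other genes (SD, n = 2 each). From 20 to 50 kb it was 18.9% ± 0.990 around msp genes, 15.6% ± 2.83 around genes of the same length and 16.8% ± 2.47 around the other genes (SD, n = 2 each). From 20 to 50 kb these means differed by amounts close to the spread between replicates, but within each list the msp genes were above both sets. Against genes of the same length and the other genes, the values were 19.6% to 17.6% and 18.5% in replicate 1. They were 18.2% to 13.6% and 15.0% in replicate 2, and 18.3% to 15.1% and 16.4% series-wide. These differences were not tested. In replicate 1 alone the msp series ran from 0% in the span over 2.70%, 5.97%, 10.8%, 19.6% and 18.9% to 19.6% at 20 to 50 kb. In replicate 2 it ran from 0% over 0.394%, 7.45%, 10.5%, 15.5% and 16.8% to 18.2%. The 2.70% of replicate 1 in the first 1 kb came from peaks beside msp-33, msp-32 and msp-36. Windows of neighbouring msp genes overlap, so the same peaks enter more than once.

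**Figure D3:**
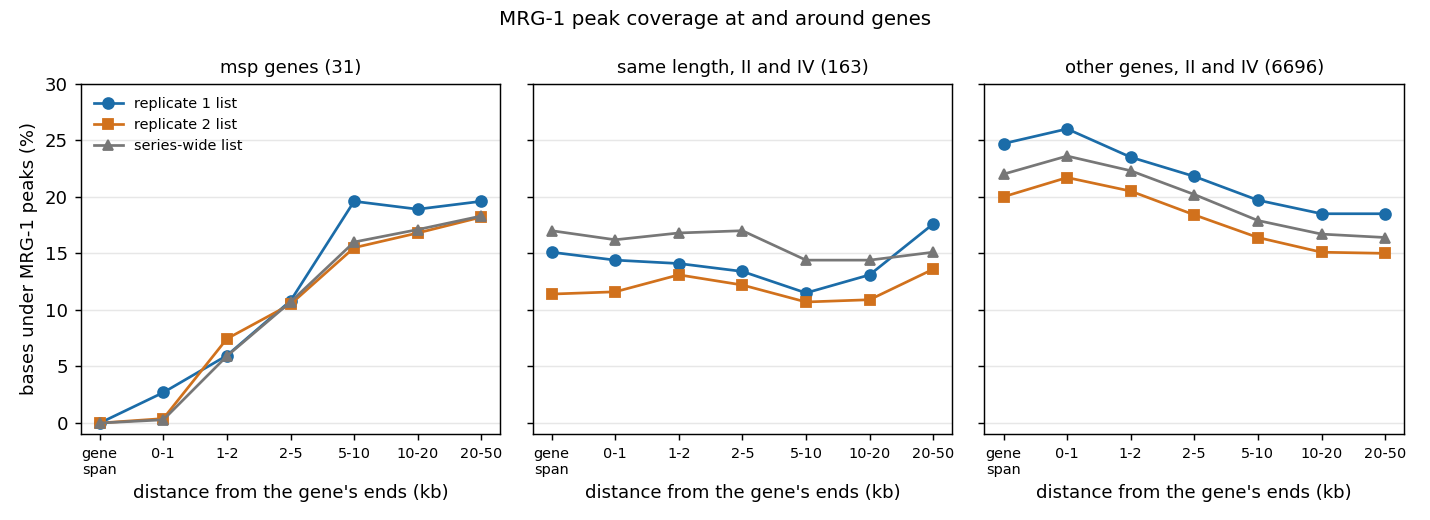
Percent of bases under MRG-1 peaks (vertical axis) in the gene span and at increasing distance in kb from the gene's ends (horizontal axis), for msp genes, for other genes of the same length range on II and IV, and for the other protein-coding genes there; each line is 1 peak list. Coverage at msp genes climbs from 0% in the span to 18.2% to 19.6% at 20 to 50 kb, whereas around the 6696 other genes, which include marked ones, it is highest within 1 kb. Around only those other genes without a peak over their span (not drawn), mean coverage over the replicates also climbs, from 1.86% within 1 kb to 15.3% at 20 to 50 kb.

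The distance from an msp gene to its nearest peak ranged widely. The median was 12.2 kb in replicate 1, 11.4 kb in replicate 2 and 9.60 kb series-wide, with ranges of 0.236 to 69.8 kb, 0.799 to 108 kb and 0.871 to 37.5 kb. Among the other genes on II and IV that had no peak, the median was 14.1 kb in replicate 1, 14.3 kb in replicate 2 and 11.7 kb series-wide. Of the msp genes, 9.68%, 6.45% and 6.45% lay within 1 kb of a peak in these lists, against 6.13%, 7.34% and 9.09% of the other unmarked genes. The msp genes were thus about as far from peaks as other genes that had none.

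The genes nearest to peaks were msp-33, msp-32 and msp-36 in replicate 1. msp-33 lay 0.236 kb from a peak in replicate 1, 0.799 kb in replicate 2 and 0.871 kb series-wide. The replicate 1 peak, from base 4888505 to base 4892074 of II, covered pgm-1, a phosphoglucomutase gene, and reached into gst-9. msp-32 lay 0.408 kb, 1.00 kb and 0.951 kb from a peak on its other side, which in replicate 1 ran from base 4899597 to base 4914684 of II. The 2 genes thus share a stretch without peaks that measured 7.52 kb in replicate 1 and 8.68 kb in replicate 2. msp-36 lay 0.680 kb, 0.957 kb and 1.07 kb from a peak over dis-3, in a stretch of 7.33 kb in replicate 1 and 8.19 kb in replicate 2. On II, msp-40 lay 2.05 kb and 2.23 kb from a peak over tbck-1 in replicates 1 and 2, and msp-3, at the other end of their cluster, 4.48 kb and 5.00 kb from one. msp-152 lay 1.80 kb and 1.94 kb from a peak. These genes thus had peaks close by in both replicates, none of which reached them. The gap of msp-33 in replicate 1 is of the same size as the uncertainty between builds, but moving all spans 200 bp to either side, or widening them by 200 bp, left every msp gene unmarked in all 3 lists.

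At the other end were clusters in long stretches without peaks. msp-55, msp-57 and msp-53 stood 27.1, 20.2 and 18.1 kb from the nearest peak in replicate 1 and 27.8, 20.9 and 18.8 kb in replicate 2. Their stretch without peaks measured 271 kb in replicate 1 and 288 kb in replicate 2 and ranked 4 by length on IV in each replicate list. The nearest peak lay over pygo-1 and ivd-1. In the cluster from msp-19 to msp-65 the farthest member was msp-65 in the replicates, 36.8 kb from a peak in replicate 1 and 37.6 kb in replicate 2. Series-wide it was msp-59 of the same cluster, at 37.5 kb the farthest of all msp genes, with msp-65 at 37.1 kb.

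For 24 of the 31 genes the nearest peak of replicate 1 overlapped the nearest peak of replicate 2. These are not 24 separate agreements, since the 31 genes had 17 distinct nearest peaks in each replicate list. For msp-32 and msp-31 a replicate 1 peak of 15088 bp was nearest, and it overlapped a different replicate 2 peak for each. No such share is at hand for other genes, so the agreement is not a trait of this family. The largest disagreements were in 3 clusters. msp-49 was 7.99 kb from a peak in replicate 1 and 102 kb in replicate 2, and msp-50 was 13.4 kb and 108 kb away, the crh-2 peak being called in replicate 1 and not in replicate 2. msp-63, msp-142 and msp-64 stood 69.8, 69.0 and 56.9 kb from a peak in replicate 1 but 22.2, 21.3 and 9.29 kb in replicate 2, which had a peak over ehs-1 from base 5819626 to base 5823763 of II. msp-38 was 12.2 kb away in replicate 1 and 1.24 kb in replicate 2, where a peak ran from base 10144981 to base 10159027 of IV. In each of these cases the msp genes themselves were unmarked in both replicates.

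The single genes and the small clusters on the middle of IV had peaks a few kb away. msp-76 lay 7.07 kb from a peak in replicate 1 and 7.96 kb in replicate 2, over dcaf-1 in both. msp-78 lay 3.40 kb and 4.59 kb from a peak over sna-2, and msp-79 lay 6.68 kb and 7.87 kb from the same peak. msp-81, msp-10 and msp-56 stood 5.38, 6.99 and 10.9 kb from a peak in replicate 1 and 5.90, 7.52 and 11.4 kb in replicate 2. That peak covered mtr-4, an RNA helicase that works with the exosome, together with catp-6 and col-123. msp-77 lay 3.70 kb and 4.17 kb from a peak over tbc-3. Both replicates thus had peaks within 11.4 kb of these genes that did not reach them.

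**Figure D4:**
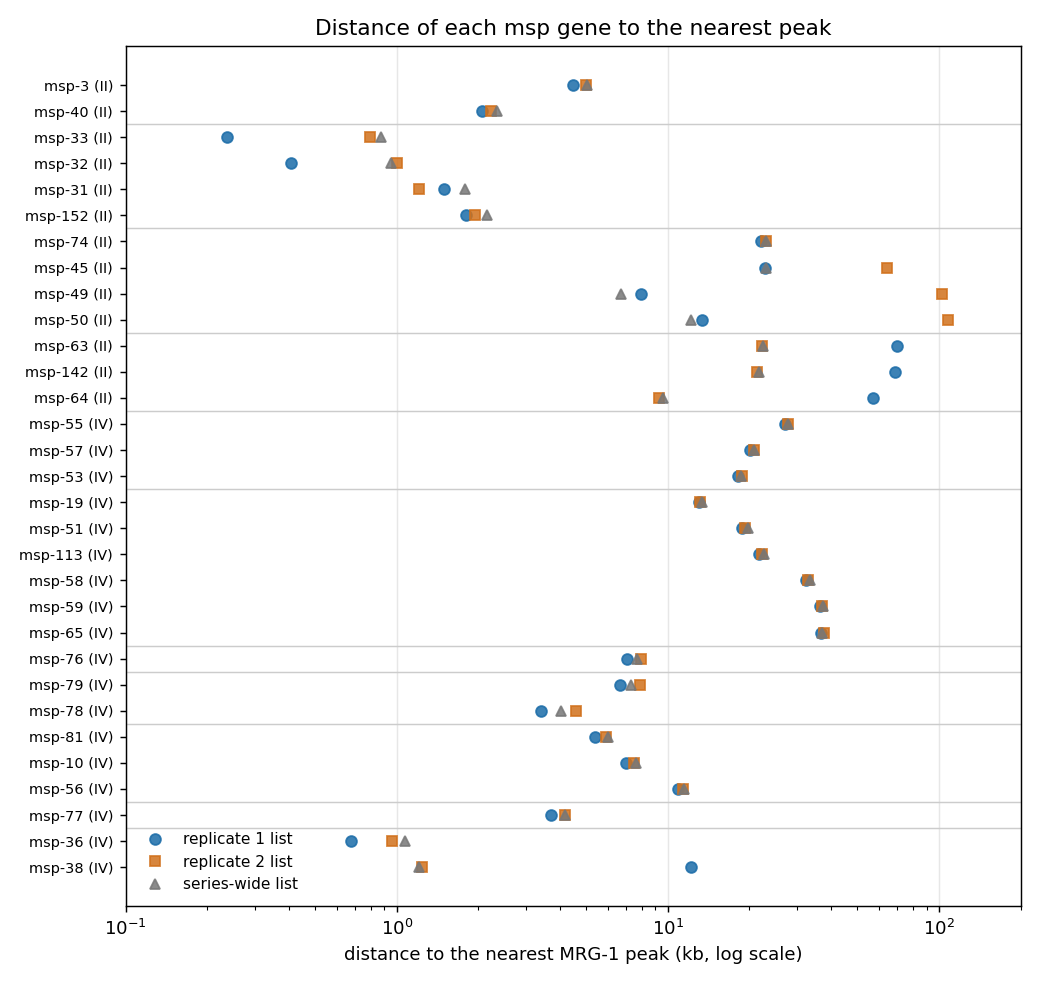
Distance from each msp gene to the nearest MRG-1 peak in kb (horizontal axis, log scale) in each list, with grey lines between clusters and the chromosome in brackets. The 3 lists give close values for most genes, from 0.236 kb for msp-33 in replicate 1 to 108 kb for msp-50 in replicate 2, and no gene is at 0.

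Long stretches without peaks held msp genes as well as other genes. In replicate 1, 18 of the 31 msp genes (58.1%) lay in stretches without peaks of at least 50 kb, against 44.2% of the other protein-coding genes on II and IV and 66% of those of the same length. In replicate 2 the shares were 54.8% of msp genes, 44.7% of other genes and 63.0% of genes of the same length, and series-wide 54.8%, 38.8% and 54.3%. For stretches of at least 100 kb, 29.0% of msp genes were in one in replicate 1 and 25.8% in replicate 2, against 23.5% and 24.9% of the other genes and 39.5% and 37.7% of genes of the same length. Series-wide the shares were 19.4% of msp genes, 18.8% of other genes and 28.4% of genes of the same length. In both replicates, at either length of stretch, the msp share lay between that of the other genes and that of genes of the same length. Marked genes count here as lying in no such stretch, and only the comparison sets hold marked genes. The order is therefore not independent of the count of 0. Of the other genes, 2947 in replicate 1 and 2979 in replicate 2 lay in stretches of at least 50 kb, while 4485 and 4619 had no peak. Among other genes without a peak, the share was thus above that of msp genes.

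Other sperm genes, taken by symbol and counted in the same way, were marked to differing degrees. Among 27 small genes of the nspd-, ssp- and msd- families, which include proteins with an MSP domain, 1 was marked in replicate 1, 1 in replicate 2 and 2 series-wide. The marked genes were msd-4 on III in replicate 1 and ssp-28 on III in replicate 2, and none was marked in both replicates. Their median of 324 bp lies in the range of the autosomal genes of 234 to 384 bp, marked to 15.4% in replicate 1, 11.1% in replicate 2 and 15.9% series-wide. The match in length is loose, since the nspd- genes have a median of 216 bp and ssp-28 spans 982 bp. Of the 9 genes made up of the ssq- and spch- families and the sperm phosphatase genes gsp-3 and gsp-4, 0 were marked in any list. Of 35 spe- and fer- genes, 13 (37.1%) were marked in replicate 1, 11 (31.4%) in replicate 2 and 11 (31.4%) series-wide, near the 30.2%, 28.1% and 32.7% of all protein-coding genes. These are longer, with a median of 2407 bp, and include spe-44, a transcriptional regulator of spermatogenesis covered to 100% in both replicates, and spe-39, which acts in membrane trafficking and was also covered to 100% in both. Differences between these families were not tested.

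The copies of the msp family are close to each other in sequence, so reads from 1 gene can align to another. How such reads were aligned and counted is not given in the sources used here, and its part in the absence of peaks over msp genes was not tested.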

How the data were processed

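MRG-1 ChIP and input samples (2 each) were grouped by their titles. Per the submitters' processing notes, alignment used BWA and the ce10 genome. The deposited peak lists are on WormBase WS220, per the file headers, and came from MACS for the replicates and MACS v2 for the series-wide list, per the files' source column. The sources used here do not give versions, thresholds, duplicate handling or the use of the input. The deposited score of each peak is the authors' own and is not defined in the files.

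Gene spans came from the RefSeq gene table of WBcel235. Peaks were merged, and overlap (at least 1 bp), covered bases and distance to the nearest peak were computed per gene with Python 3.11.15, numpy 2.4.6, pandas 2.3.3 and matplotlib 3.10.9. The overlap functions were tested on simulated data, with peaks laid over 200 genes. No statistical test was run. The genes, lists and settings were chosen with earlier results of these data known. Genes named are all members at either end of a cluster, alone, nearest to or farthest from a peak, and genes under peaks in or beside clusters. Other neighbours, and genes of the other sperm families, were named after their values were seen. Strand, protein and promoter sequences were not used here, so the planned motif search, identity between copies and gene-start setting were not run.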

Additional observations from a re-analysis of the deposited data

How the results depend on the processing

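The counts of 0 msp genes under a peak and 0 clusters with a marked msp gene were unchanged in the series-wide list. They were also unchanged with spans widened by 200 bp or moved 200 bp either way. Leaving out replicate 1 or replicate 2, or keeping the top 50% of peaks by score, gave 0 as well. So did requiring at least 50% of the span, or the middle base alone. Settings of these last kinds cannot raise a count of 0, so their result was fixed in advance. Widening spans by 1 kb marked a mean of 2.5 genes in 2 clusters and covered 1.3% of the widened bases. Widening by 500 bp, a setting added after seeing the data, as was the middle base, gave a mean of 1 gene, 0.5 clusters and 0.418%. The median distance, 11.8 kb as the mean of both replicates, was 9.60 kb in the series-wide list and 17.5 kb with the top 50% of peaks, and 11.4 to 12.2 kb with a replicate left out. Other genes marked inside clusters, 19 on average, numbered 11 with the top 50% of peaks, 12.5 with at least 50% of the span, 12 by the middle base, 5.5 with clusters joined within 20 kb and 50 within 100 kb, as those spans hold fewer or more genes. Genes of the same length were marked to 18% when widened by 1 kb, against 13.2%, and marked genes of the other sperm families fell to a mean of 6 with at least 50% of the span or by the middle base, against 13. Depth is unknown, so whether more reads would place a peak over an msp gene cannot be read from these lists. No paired analysis was possible because no values of the inputs were at hand for the ChIP samples of the same number. The gene-start setting was not run.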
